A study of Mus musculus with 43 samples.

Results

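Chromosome 7 of the mouse carried 3135 of the 48260 peaks called from ChIP-seq of mouse embryonic fibroblasts (MEFs), with antibodies to Setdb1 and to the histone marks H3K9me2, H3K9me3 and H3K27me3. Of these, 2877 lay in the 9 lists of histone marks and 258 in the 3 lists of Setdb1. The members were selected on measured values, since a region belongs to the set when it was called as a peak on chromosome 7, and the chromosome itself was chosen with its peak numbers known. Peak numbers, peak positions and their change between lists are therefore given as descriptions with counting intervals and no test. The other 18 autosomes carried 40732 peaks in the same lists and serve as the background.

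The MEFs came from E13.5 embryos of 129/C57 dams and CAST sires and had all been transduced with a hairpin. Female cells were *Setdb1*+/+ *Xist*∆A/+ with a non-silencing hairpin, Setdb1-depleted cells were female *Setdb1*+/gt *Xist*∆A/+ (gt marks a gene trap allele) with a hairpin against *Setdb1*, and male cells were *Setdb1*+/+ X/Y with the non-silencing hairpin. Both kinds of female cells carry the *Xist*∆A allele, which fixes the X chromosome that is silenced. Each list pools 3 libraries (female, male) or 2 libraries (Setdb1-depleted), so there is no spread between replicates. The header of the Setdb1-depleted Setdb1 list names the non-silencing hairpin for gene trap cells, whereas the labels give the *Setdb1* hairpin, so the hairpin of that list is uncertain. The extract protocol speaks of NSCs where every other label says MEFs, and lists of peaks hold no expression by which fibroblast markers could be read. The H3 reads gave a check of sex: at female H3K9me3 peaks of the X, the median male H3 level was 0.525 of the female level after centring on the autosomes.

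Setdb1 is a methyltransferase that places methyl groups on lysine 9 of histone H3 and is brought to repeats and to some genes by zinc finger proteins through the co-repressor Trim28. H3K9me3 and H3K9me2 are marks of silent, repeat-rich chromatin. H3K27me3 is placed by the Polycomb complex PRC2, mostly over silent developmental genes. Mouse chromosome 7 is known for its large clusters of vomeronasal and olfactory receptor genes, zinc finger genes and kallikreins, and for imprinted domains around *Peg3*, *Snrpn*, *Igf2* and *Kcnq1*.

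The sequences under the strongest Setdb1 peaks of chromosome 7 show what kind of DNA they fall on. In each, bases are given 5′ to 3′ on the forward strand of mm10. Capitals mark the bases common to the peaks of all 3 lists in the *Myo7a* sequence, and the 21 bases around the summit in the others.
*Myo7a* peak of all 3 lists, chr7:98060012-98060143: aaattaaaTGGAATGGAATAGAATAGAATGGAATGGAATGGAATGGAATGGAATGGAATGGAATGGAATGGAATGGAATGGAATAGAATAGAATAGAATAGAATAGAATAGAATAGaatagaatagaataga
Peak of the female list in the *Snhg14* transcript, chr7:59859884-59860039: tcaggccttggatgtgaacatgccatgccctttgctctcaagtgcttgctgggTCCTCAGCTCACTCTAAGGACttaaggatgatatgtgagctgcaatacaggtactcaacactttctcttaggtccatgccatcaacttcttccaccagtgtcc
Peak of the Setdb1-depleted list near *Vmn1r77*, chr7:12010676-12010805: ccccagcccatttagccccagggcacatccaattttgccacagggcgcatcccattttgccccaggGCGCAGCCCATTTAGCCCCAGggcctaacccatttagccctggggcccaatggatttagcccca
Peak of the male list within the annotated bodies of *Fgfr2* and *Tacc2*, chr7:130685136-130685429: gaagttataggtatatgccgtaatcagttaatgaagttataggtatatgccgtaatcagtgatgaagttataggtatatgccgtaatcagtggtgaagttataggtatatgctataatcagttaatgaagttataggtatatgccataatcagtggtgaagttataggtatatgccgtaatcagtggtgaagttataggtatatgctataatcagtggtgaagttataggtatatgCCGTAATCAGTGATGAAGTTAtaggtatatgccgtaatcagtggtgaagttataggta
Peak of the male list in *Zfp936*, chr7:43173443-43173542: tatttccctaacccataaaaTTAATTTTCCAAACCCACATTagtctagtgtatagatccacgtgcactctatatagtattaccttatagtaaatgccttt
Peak of the male list near the start of *Peg3*, chosen after its values were seen, chr7:6729246-6729450: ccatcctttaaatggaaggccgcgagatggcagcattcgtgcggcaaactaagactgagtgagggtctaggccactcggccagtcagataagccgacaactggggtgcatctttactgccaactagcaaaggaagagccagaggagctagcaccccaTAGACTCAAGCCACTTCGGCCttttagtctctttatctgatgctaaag

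Some of these sequences are tandem repeats. The *Myo7a* peak is a run of GGAAT units (13, with 24 of the shorter GAAT), and of 1074633 non-overlapping 132-base stretches of chromosome 7, 0 held as many GGAAT units on either strand and 1 held as many GAAT units. The male *Fgfr2* and *Tacc2* peak repeats the stretch gttataggtatatgc 9 times, which 2 of 482467 stretches of 294 bases matched. The units were read from the peaks themselves, and the borders of the stretches can split a run, so these counts only describe the peaks. The sequence of the female *Snhg14* peak matched 69 places of the genome at 95% identity over 90% of its length, all of them on chromosome 7, whereas the *Peg3* peak matched 1 place. The *Myo7a* peak, as called in the female, Setdb1-depleted and male lists, matched 15, 17 and 12 places, of which 10, 12 and 8 were on other chromosomes, so its reads cannot be placed with certainty. Matches with different ends were counted as separate places, also where they overlap.

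H3K9me3 was denser on chromosome 7 than on the other autosomes in all 3 kinds of cells. In female cells 458 H3K9me3 peaks made 3.15 peaks per Mb (95% interval 2.87 to 3.45), against 2.31 per Mb over the other autosomes, a ratio of 1.36 (1.23 to 1.5). In Setdb1-depleted cells 376 peaks made a ratio of 1.94 (1.74 to 2.16), and in male cells 430 peaks made a ratio of 1.43 (1.29 to 1.58). By peaks per Mb, chromosome 7 was the first of the 19 autosomes in each of these lists. By length the difference was wider, since 7.43% of chromosome 7 lay under female H3K9me3 peaks and 4.03% of the other autosomes. The intervals here and below are exact and cover counting error only.

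The other targets set chromosome 7 apart less, or not at all. H3K9me2 gave 98 female, 59 Setdb1-depleted and 72 male peaks, and the female density was 1.01 of that of the other autosomes (0.818 to 1.24). By length, female H3K9me2 covered 1.48% of chromosome 7 and 1.15% of the other autosomes. The male density of H3K9me2 was 0.716 (0.557 to 0.907), the 18th of the 19 autosomes. H3K27me3 gave 490, 450 and 444 peaks with ratios of 1.15 (1.04 to 1.26), 1.23 (1.12 to 1.36) and 1.12 (1.02 to 1.24). It was thus also denser on chromosome 7 in all 3 lists, at rank 3, 2 and 4 of the 19 autosomes. Setdb1 gave 66, 18 and 174 peaks with ratios of 1.01 (0.778 to 1.30), 0.899 (0.526 to 1.44) and 0.943 (0.805 to 1.10), so that its peaks were about as dense as elsewhere where H3K9me3 was dense.

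To see where the marks gather, the chromosome was divided into 30 windows of 5 Mb counted from the centromeric end, the last one shorter. In female cells 5 windows held 5545 of the 10800 kb under H3K9me3 peaks, which is 51.3%, while the median window held 220 kb. These were window 2 (5 to 10 Mb, 1775 kb), window 4 (15 to 20 Mb, 1190 kb), window 9 (40 to 45 Mb, 1085 kb), window 3 (10 to 15 Mb, 920 kb) and window 8 (35 to 40 Mb, 575 kb). Among all 503 windows of the 19 autosomes, window 2 had rank 3, window 4 rank 7, window 9 rank 9 and window 3 rank 13 for female H3K9me3 bases. The 3 windows with most H3K9me3 were the same in the Setdb1-depleted list, where they held 1515 kb (window 2), 940 kb (window 9) and 850 kb (window 4), and in the male list, where they held 1255, 860 and 1085 kb.

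**Figure D1:**
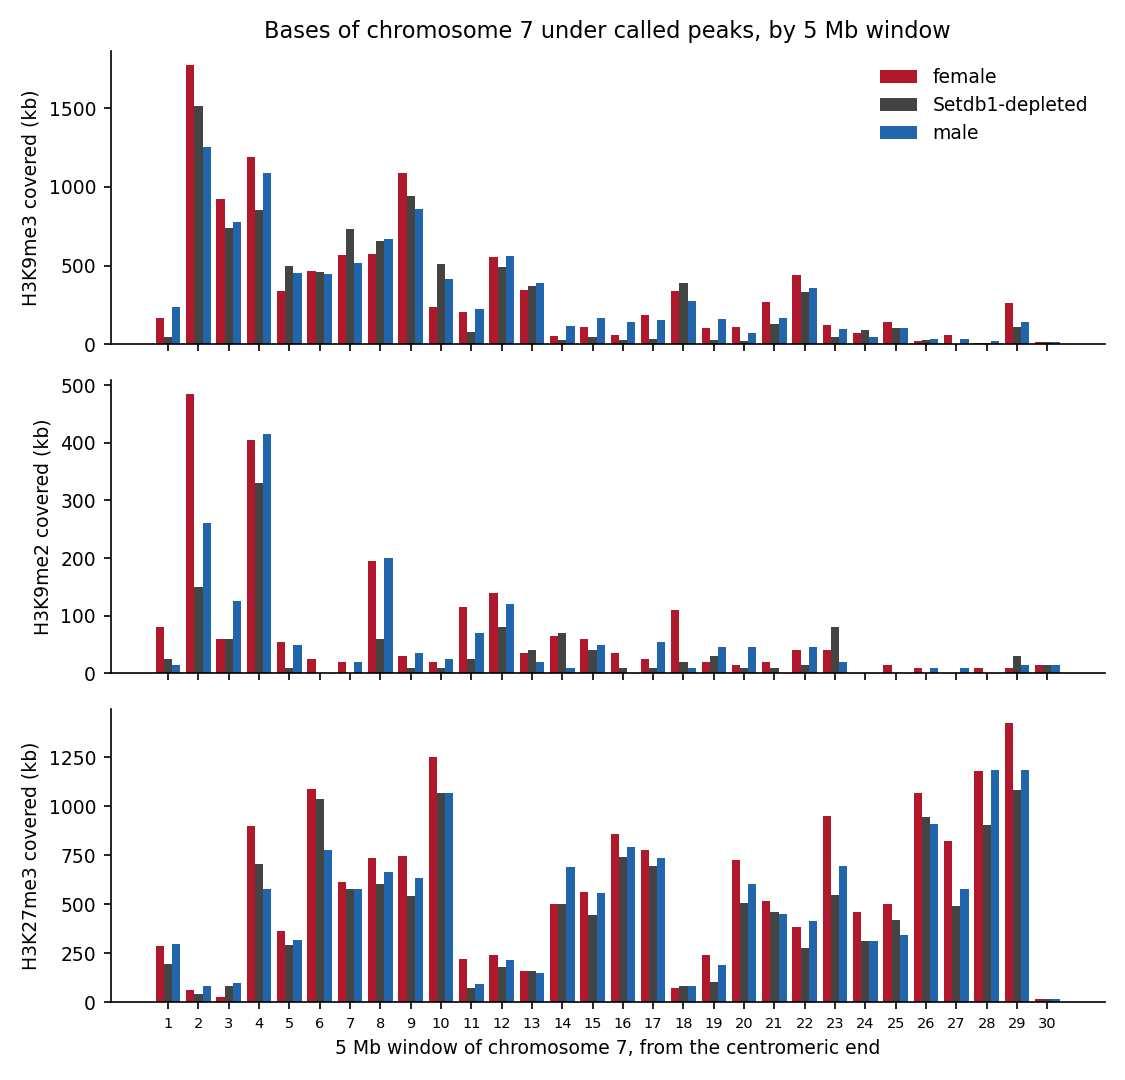
Bases under called peaks (kb) in each 5 Mb window of chromosome 7, numbered from the centromeric end, for H3K9me3, H3K9me2 and H3K27me3 in the pooled female, Setdb1-depleted and male lists. Female H3K9me3 is highest in windows 2, 4, 9, 3 and 8, with 1775 kb in window 2, and female H3K9me2 in windows 2, 4 and 8. Female H3K27me3 is at 65 and 25 kb in windows 2 and 3 and highest in window 29.

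H3K9me2 gathered in part of the same windows. Window 2 held 485 kb, window 4 held 405 kb and window 8 held 195 kb of the 2155 kb under female H3K9me2 peaks, together 50.3%. On chromosome 7, 80.0% of female H3K9me2 bases also lay under an H3K9me3 peak, against 51.3% on the other autosomes. In male cells the values were 81.0% and 50.5%. In Setdb1-depleted cells they were 46.1% and 43.3%, so the excess of chromosome 7 in this overlap was smaller in that list. By length, H3K9me3 also covered more of chromosome 7 than of the other autosomes in every list.

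H3K27me3 lay elsewhere. Its 3 windows with most female bases were window 29 (140 to 145 Mb, 1425 kb), window 10 (45 to 50 Mb, 1250 kb) and window 28 (135 to 140 Mb, 1180 kb). Windows 2 and 3 held only 65 and 25 kb of it. Of the female H3K9me3 bases 9.21% lay under an H3K27me3 peak, whereas 12.2% of the whole chromosome did. In Setdb1-depleted cells the shares were 4.77% and 9.68%, but in male cells they were alike, at 10.6% and 10.5%. On the other autosomes the order was reversed: 17.8% and 10.3% in female, 12.9% and 7.97% in Setdb1-depleted and 19.8% and 9.33% in male cells. Across the 28 windows with over 4 Mb of known sequence, female H3K9me3 and H3K27me3 bases had a Spearman rho of −0.31, given as a description, since windows of a chromosome share libraries and neighbours.

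The widest H3K9me3 peak of chromosome 7 spanned 360 kb in the female and the male list, chr7:15105001-15465000, from *Obox2* to *Obox1*, genes of oocyte homeobox proteins. The widest of the Setdb1-depleted list spanned 265 kb at chr7:38285001-38550000 over the predicted gene *Gm5591*, where the female list had a peak of 270 kb. The widest H3K9me2 peaks lay inside the *Obox* domain. They measured 230 kb in female cells (chr7:15120001-15350000, no protein-coding gene), 160 kb in Setdb1-depleted cells (chr7:15190001-15350000, none) and 290 kb in male cells (chr7:15115001-15405000, *Obox2* to *Obox1*). The widest H3K27me3 peak was 220 kb in female cells (chr7:112915001-113135000, over *Rassf10*) and 205 kb in male cells at the same start. In Setdb1-depleted cells it was a peak of 215 kb at chr7:44255001-44470000, from *Acp4* to *Josd2*.

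Sensory receptor clusters made up much of the genic H3K9me3. All genes below were counted as covered when at least 50% of the gene body lay under peaks. Genes named singly were picked for their covered share in the female list. Those wholly covered there could only stay or fall in another list, so their lower share elsewhere does not measure a loss. Over the 19 autosomes 2.85% of protein-coding genes were covered by female H3K9me3 peaks, and on chromosome 7 it was 113 of 2023 genes (5.59%). Reads from near-identical copies within these families cannot be placed with certainty, and the median covered share of all protein-coding genes was 0%.

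The Vmn2r genes, which encode pheromone receptors of the vomeronasal organ, were covered most often. H3K9me3 covered 22 of the 51 Vmn2r genes in the female list, 21 in the Setdb1-depleted list and 13 in the male list. In the same order, the median covered share was 34.8%, 23.7% and 0%, and 13, 8 and 6 genes lay wholly under peaks. *Vmn2r28*, *Vmn2r30*, *Vmn2r31* and *Vmn2r32* lay wholly under female peaks, as did 9 more. In Setdb1-depleted cells *Vmn2r30* and *Vmn2r31* were again wholly covered, while *Vmn2r28* was covered over 23.7% and *Vmn2r32* over 16.2%. The male list covered 83.6%, 0%, 100% and 72.1% of these 4 genes in the order named. H3K9me2 also covered 83.2% of *Vmn2r30*, 100% of *Vmn2r31* and 83.7% of *Vmn2r32* in female cells.

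Of the 103 Vmn1r genes, the other vomeronasal receptor family, 15 were covered in the female list, 17 in the Setdb1-depleted list and 16 in the male list. Wholly under peaks lay 13 in the female, 9 in the Setdb1-depleted and 9 in the male list. Among the 13 of the female list were *Vmn1r58*, *Vmn1r60*, *Vmn1r64* and *Vmn1r77*. *Vmn1r58* and *Vmn1r60* kept 71.0% and 70.9% in Setdb1-depleted cells, while *Vmn1r64* and *Vmn1r77* had 0%.

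For the 244 Olfr (odorant receptor) genes the numbers were 31, 18 and 16 in female, Setdb1-depleted and male cells. *Olfr1348*, *Olfr291*, *Olfr589* and *Olfr631* lay wholly under female peaks and had 0% in Setdb1-depleted cells. The 28 genes of the Ceacam and Psg family, which includes pregnancy-specific glycoproteins of the placenta, gave 6, 6 and 2 covered genes. *Psg18*, *Psg28*, *Psg23* and *Psg21* lay wholly under female peaks, and 0%, 47.4%, 100% and 100% of them under Setdb1-depleted peaks.

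Zinc finger (Zfp) genes were covered at a share near that of all genes of the chromosome. In female cells it was 6 of 92 (6.52%, beside the 5.59% of all genes), 2 in Setdb1-depleted and 7 in male cells, against 55, 35 and 52 of the 293 Zfp genes of the other autosomes. The most covered were *Zfp146* (100%), *Zfp180* (88.1%), *Zfp780b* (79.2%) and *Zfp420* (71.0%), of which *Zfp146* was wholly covered and the others had 0% in Setdb1-depleted cells. Of 458 female H3K9me3 peaks 8 overlapped a Zfp gene, 56 a vomeronasal receptor gene, 30 an Olfr gene, 108 only another protein-coding gene and 256 no protein-coding gene.

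Some small families had more covered genes in the Setdb1-depleted list than in the female list. Of 13 Nlrp genes (NOD-like receptors) H3K9me3 covered 2 in the female list, 5 in the Setdb1-depleted list and 1 in the male list, with *Nlrp9c* at 75.4%, 95.4% and 36.9% and *Nlrp4e* at 69.2%, 40.9% and 24.6%. The 19 Mrgpr genes, receptors of sensory neurons, gave 2, 5 and 3, and the 15 Cyp2 genes, cytochrome P450 enzymes, gave 1, 2 and 1. Over all autosomes 2.53% of genes were covered in the Setdb1-depleted list. No gene of the 26 kallikreins, 16 Trim genes, 23 developmental regulators or 13 widely expressed genes of chromosome 7 was covered by H3K9me3 in the female list.

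**Figure D2:**
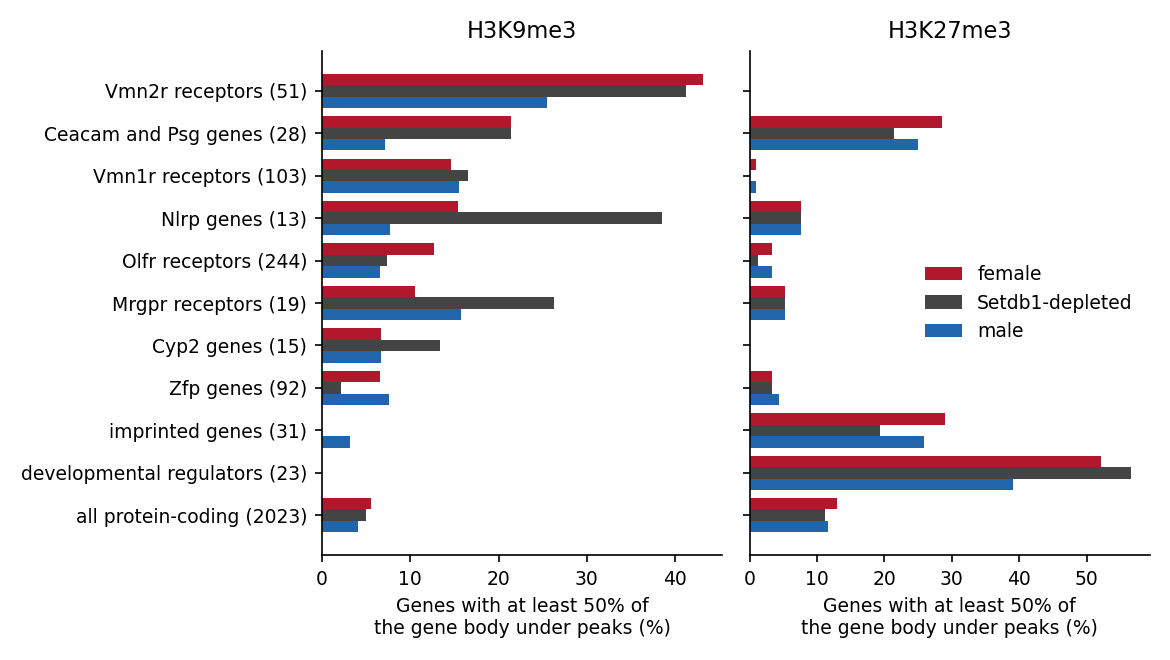
Percent of the genes of each list on chromosome 7 (number of genes in brackets) with at least 50% of the gene body under H3K9me3 or H3K27me3 peaks, in the pooled female, Setdb1-depleted and male lists. Female H3K9me3 covered 22 of 51 Vmn2r genes but 6 of 92 Zfp genes, and female H3K27me3 covered 12 of 23 developmental regulators.

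Chromosome 7 kept more of its H3K9me3 peaks in the Setdb1-depleted list than any other autosome did. From 458 female peaks to 376 the ratio was 0.821 (0.714 to 0.943), whereas on the other autosomes 5362 peaks became 3091, a ratio of 0.576 (0.551 to 0.603). The next highest were chromosomes 17 (0.764), 6 (0.753) and 14 (0.723), all within the interval of chromosome 7. The lowest was chromosome 18 with 0.391. By covered bases the ratios were 0.864 on chromosome 7 and 0.625 on the other autosomes. Of the female H3K9me3 peaks of chromosome 7, 212 (46.3%, 41.6 to 51.0) overlapped a Setdb1-depleted peak, against 33.3% over all 19 autosomes, and this share was again the first of 19. A male peak overlapped 250 of the same 458 (54.6%, 49.9 to 59.2), against 50.7% over all autosomes.

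The difference from the other autosomes lay in the proximal part of the chromosome. Up to the midpoint at 72.7 Mb, 307 female H3K9me3 peaks stood against 290 in the Setdb1-depleted list, a ratio of 0.945 (0.802 to 1.11). Beyond it 151 peaks stood against 86, a ratio of 0.570 (0.432 to 0.747). On the other autosomes both parts gave alike ratios, 0.575 (0.542 to 0.611) proximally and 0.578 (0.540 to 0.618) distally. The ratio of the distal part of chromosome 7 was thus near those of the other autosomes, and that of the proximal part was higher. The split at the midpoint was chosen after the data were seen, so these ratios are a description and no test.

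**Figure D3:**
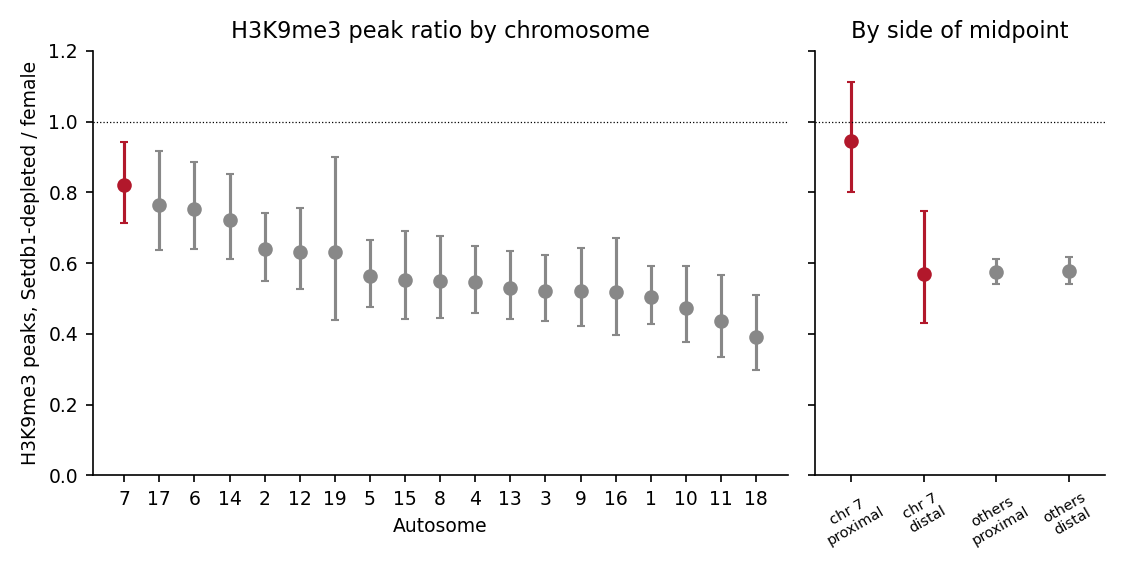
Ratio of H3K9me3 peaks in the Setdb1-depleted list to those in the female list for each autosome, and for both sides of the midpoint of chromosome 7 and of the other autosomes together. Points are ratios of peak numbers and bars exact 95% intervals for counting error; chromosome 7 is in red, at 0.821 in all, 0.945 proximally and 0.570 distally.

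The number of peaks was kept better than their positions. In the proximal part, 57.4% of female H3K9me3 bases lay under a Setdb1-depleted peak, and 61.7% of Setdb1-depleted bases under a female peak, so 3045 kb were marked there in the Setdb1-depleted list only. In the distal part the shares were 27% and 44.2%. On the other autosomes they were 36.0% and 57.6%. The pooled female and male lists, which share the intact *Setdb1* gene, set the scale: 61.3% of proximal and 40.3% of distal female bases lay under a male peak. These comparisons share the female list.

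A window with at least 5 female peaks was said to lose a mark where the Setdb1-depleted list had at most 0.5 times as many peaks, and to keep it where that list had as many or more. Of the 26 such windows of chromosome 7 for H3K9me3, 10 lost and 6 kept it, whereas over all 19 autosomes 55.4% of windows lost and 11.7% kept it. With the windows shifted by 2.5 Mb, 7 of 25 lost and 9 kept it, so the windows named here depend on where their borders lie. The windows that kept it were 2, 5, 7, 8, 10 and 24, all but the last in the proximal part.

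Window 2, with Vmn2r, Vmn1r and Zfp genes, had 53 female, 57 Setdb1-depleted and 43 male H3K9me3 peaks. Window 5 (20 to 25 Mb), which holds 65 Vmn1r genes, had 14, 23 and 20. Window 7 (30 to 35 Mb) had 25, 34 and 18, and window 8 had 9, 11 and 16. Window 10 (45 to 50 Mb), which holds 15 Mrgpr genes, had the largest ratio, with 10 female, 21 Setdb1-depleted and 16 male peaks. There 8 of the 10 female peaks overlapped a Setdb1-depleted peak, but 9 of the 21 Setdb1-depleted peaks overlapped a female peak, so most of its peaks in that list were at other places. Window 24 had 6, 6 and 4.

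The windows that lost H3K9me3 peaks were 1, 11, 16, 17, 19, 20, 21, 23, 27 and 29. Window 27 (130 to 135 Mb) had 5 female, 0 Setdb1-depleted and 3 male peaks. Window 11 (50 to 55 Mb) had 12, 2 and 14, and window 19 (90 to 95 Mb) had 10, 2 and 12. Window 20 had 8, 2 and 6, window 1 had 11, 4 and 13, and window 16 had 5, 2 and 11. Window 21, with 113 Olfr genes, had 18, 8 and 11. Window 29 had 14, 6 and 7, window 17 had 7, 3 and 9, and window 23 had 9, 4 and 8. In the male list 1 of the 26 windows, window 29, had at most 0.5 times the female number. Nearest to the limits, windows 21 and 23 lost with ratios of 0.444 and window 15 did not with 0.556, and window 24 kept with 1.00 and window 6 did not with 0.9.

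**Figure D4:**
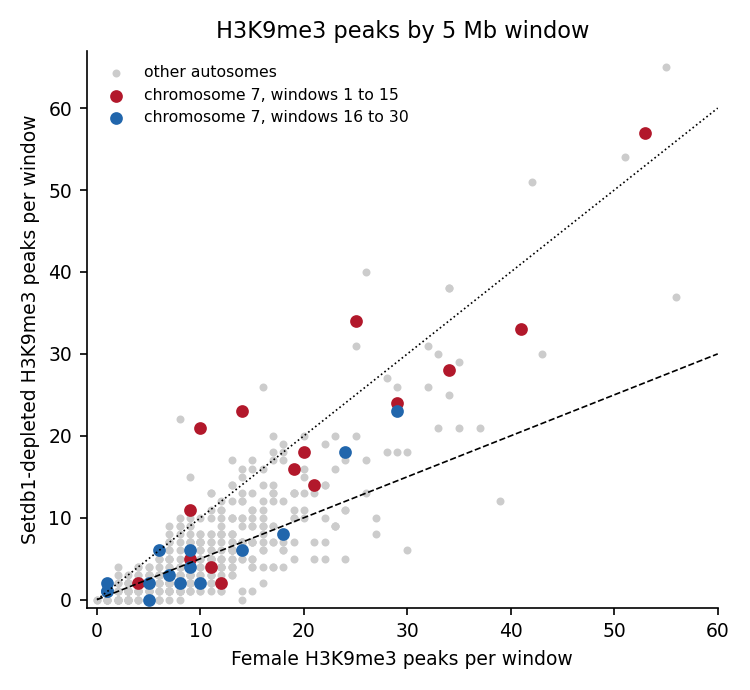
H3K9me3 peaks per 5 Mb window in the female list (x axis) and in the Setdb1-depleted list (y axis), with 1 point per window. The dotted line marks equal numbers and the dashed line 0.5 times the female number; of the windows of chromosome 7 with at least 5 female peaks 6 lie on or above the dotted line and 10 on or below the dashed line.

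Wide domains were found again more often than narrow ones. Of female H3K9me3 peaks of chromosome 7 that were 10 kb wide, the narrowest there are, 43 of 157 (27.4%) overlapped a Setdb1-depleted peak. Of those over 30 kb wide 49 of 58 did (84.5%, 72.6 to 92.7), close to the 80.0% of such peaks on the other autosomes. Among 10 kb peaks the share was 17.5% on the other autosomes. Of the 56 peaks over vomeronasal receptor genes 38 were found again (67.9%, 54.0 to 79.7), and of the 8 over Zfp genes 2. Wider peaks have more bases by which to overlap, and the Setdb1-depleted pool is of 2 libraries.

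The share of repeat-masked sequence moved with the number of kept peaks on all autosomes. Repeats are the lower-case bases of the reference. In the 3 windows of chromosome 7 with 50% repeats or more (windows 2, 3 and 5), 108 female H3K9me3 peaks stood against 113 in the Setdb1-depleted list, a ratio of 1.05 (0.797 to 1.37), and in the 4 such windows of the other autosomes the ratio was 0.881 (0.610 to 1.27). At 40 to 50% repeats the ratios were 0.842 (0.653 to 1.08) on chromosome 7 and 0.720 (0.666 to 0.778) elsewhere. At 30 to 40% they were 0.758 (0.576 to 0.994) and 0.531 (0.498 to 0.567), and below 30% they were 0.590 (0.406 to 0.850) and 0.460 (0.412 to 0.514). Within each class chromosome 7 was thus higher, and its interval lay apart from that of the other autosomes at 30 to 40% only. The part of repeat content in the ratios was not tested.

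**Figure D5:**
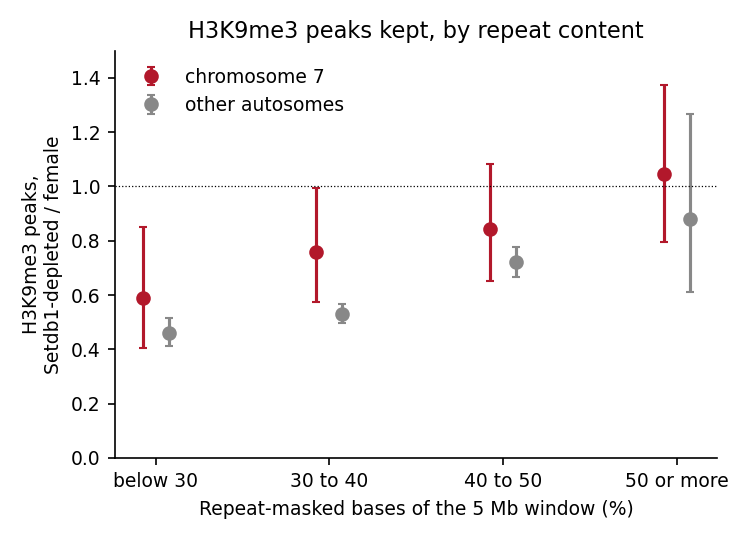
Ratio of H3K9me3 peaks in the Setdb1-depleted list to those in the female list, for 5 Mb windows grouped by the percent of repeat-masked bases, on chromosome 7 and on the other autosomes. Bars are exact 95% intervals for counting error; the ratio goes from 0.590 to 1.05 on chromosome 7 and from 0.460 to 0.881 elsewhere.

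The densest windows were also rich in repeats and in gene copies. The 5 windows with most female H3K9me3 had 43.8% repeat-masked bases, the other 25 windows of the chromosome 33.6%. The 5 windows held 446 pseudogenes, where the other 25 held 752. They held 37 of the 92 Zfp genes of the chromosome, 36 of its 103 Vmn1r genes, 36 of its 51 Vmn2r genes and 25 of its 28 Ceacam and Psg genes, but 8 of its 244 Olfr genes. So Zfp genes lay in these windows while few had their bodies covered, and Olfr genes mostly lay elsewhere. Across the 28 windows with over 4 Mb of known sequence the Spearman rho of female H3K9me3 bases with the repeat share was 0.79, and over 442 windows of the other autosomes it was 0.62. With the Setdb1-depleted to female ratio of H3K9me3 peaks the rho was 0.36 on chromosome 7 and 0.41 on the other autosomes. Higher ratios in windows dense in H3K9me3 were thus not particular to chromosome 7. Outside these 5 windows 292 female H3K9me3 peaks stood against 223, a ratio of 0.764 (0.639 to 0.912), still above that of the other autosomes.

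H3K9me2 behaved otherwise than H3K9me3. From 98 female peaks to 59 its ratio on chromosome 7 was 0.602 (0.428 to 0.840), the 18th of 19, with 0.740 (0.685 to 0.799) on the other autosomes. In male cells the ratio to female was 0.735 (0.534 to 1.01), the last of 19, against 1.04 elsewhere. Of the female peaks 28 of 98 (28.6%, 19.9 to 38.6) overlapped a Setdb1-depleted peak and 39 (39.8%, 30.04 to 50.2) a male peak, near the 26.8% and 35.0% of all autosomes. Of 7 windows with at least 5 female peaks 4 lost H3K9me2 and 1 kept it, where 43.8% and 11.4% did over all autosomes. Window 2 had 19 female, 8 Setdb1-depleted and 10 male H3K9me2 peaks, and its covered length was 485, 150 and 260 kb. Window 4, which holds the *Obox* domain, had 405, 330 and 415 kb in all.

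H3K27me3 kept most of its peaks. The ratio of Setdb1-depleted to female peaks was 0.918 (0.806 to 1.05), and 0.854 (0.824 to 0.884) on the other autosomes. Of 490 female peaks 316 (64.5%, 60.1 to 68.7) overlapped a Setdb1-depleted peak and 320 (65.3%, 60.9 to 69.5) a male peak, where 58.8% and 61.3% did over all autosomes. Of 28 windows 2 lost it (windows 11 and 19) and 12 kept it, against 14.7% and 33.1% of windows over all autosomes. With the windows shifted by 2.5 Mb 0 lost it, and by covered bases only 3 kept it. Windows 11 and 19 also lost H3K9me3, with 9 and 11 female H3K27me3 peaks and 4 and 5 in the Setdb1-depleted list.

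H3K27me3 covered developmental regulators and part of the imprinted genes. Over all autosomes 13.8% of protein-coding genes were covered in female cells, on chromosome 7 it was 262 of 2023 genes, and of the 23 developmental regulators it was 12. *Cebpa*, *Myod1*, *Dbx1* and *Mesp2*, transcription factors of fat, muscle, spinal cord and somites, lay wholly under female and Setdb1-depleted peaks. In male cells *Myod1* and *Dbx1* did so and *Cebpa* and *Mesp2* had 0%. Of 31 imprinted genes 9 were covered in female cells, 7 of them wholly. These were *Magel2*, *Igf2*, *Th*, *Ascl2*, *Cdkn1c*, *Slc22a18* and *Phlda2*. *Igf2*, which encodes a fetal growth factor, and *Cdkn1c*, which encodes a cell cycle inhibitor, were wholly covered in all 3 lists. *Magel2* and *Th* were at 0% in the Setdb1-depleted list. *Kcnq1ot1*, the long non-coding RNA of the *Kcnq1* domain, was covered over 55.4% in female and male cells and 0% in Setdb1-depleted cells. *Peg3*, *Snrpn* and *H19* had no base of the gene body under a histone peak in any list. By H3K9me3, *Kcnq1ot1* alone of the imprinted genes was covered, over 53.7% in male cells.

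Setdb1 peaks were short and mostly weak. The median width on chromosome 7 was 104.5 bp in the female and 106.5 bp in the Setdb1-depleted list, and the widest peak of the male list spanned 469 bp. The median −log10 p was 4.99 in the female, 5.91 in the Setdb1-depleted and 4.74 in the male list, and 25 of 66, 11 of 18 and 81 of 174 peaks reached 5. The calls rested on 18134299, 14405821 and 12320583 reads after duplicates were removed and the deeper of ChIP and whole cell extract was down-sampled, so the male list with most peaks had the fewest reads. Few peaks recurred: 1 of 66 female peaks (1.52%, 0.0384 to 8.16) overlapped a Setdb1-depleted peak and 3 (4.55%, 0.947 to 12.7) a male peak, where 1.90% and 4.80% did over all autosomes.

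The *Myo7a* peak headed all 3 lists, with a pileup of 21 reads and −log10 p of 15.3 in female cells, 19 and 18.8 in Setdb1-depleted cells, and 53 and 81.9 in male cells. *Myo7a* encodes a myosin of the inner ear and retina. The peak fell in no histone peak. Its fold enrichment over local background was 7.33, 10.0 and 32.8.

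The other leading peaks of each list were its own. In female cells the next 4 lay in the *Snhg14* transcript (pileup 15, −log10 p 10.6), 44197 bp from the start of *Snurf* (10, 8.0), 9140 bp from *Ccdc9* (9, 6.54) and 12743 bp from *Bsph1* (8, 6.02). The sequences of the *Snurf* and *Bsph1* peaks matched 39796 and 6877 places of the genome. In Setdb1-depleted cells they lay 26000 bp from *Vmn1r77* (14, 8.41), in *Nlrp9b* (8, 6.99), 559824 bp from *Vstm2b* (8, 6.99), with 7813 matching places, and where *Fgfr2* and *Btbd16* overlap (9, 6.95). In male cells 3 of them lay in *Fgfr2* and *Tacc2* (15, 16.6), in *Zfp936* (12, 10.2) and in *Nlrp4e* (16, 9.20). The *Peg3* peak of male cells had a pileup of 8 and −log10 p of 7.52, and its summit lay 1018 bp from the gene's start. It held 1 copy of TGCCGC, the letters that the imprint factor Zfp57 binds when methylated, counted on both strands, and 1 female, 0 Setdb1-depleted and 6 male peaks of the chromosome held at least 1. Of 691949 stretches of chromosome 7 of the same length, 1.35% held a copy.

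Besides *Myo7a*, peaks of 2 lists overlapped at 3 places. A peak near *Chrna7*, 32536 bp away in the female list, and another in *Inpp5f* were in the female and the male list. In *Tshz3* a Setdb1-depleted peak (chr7:36729630-36729750) met a male peak (chr7:36729748-36729847) at their ends only. Both *Tshz3* peaks and the female *Chrna7* peak lay wholly in repeat-masked sequence. The *Inpp5f* peak had a pileup of 7 in female and 12 in male cells.

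In the female and male lists the share of Setdb1 peaks within H3K9me3 peaks of the same cells was above the share of the chromosome so covered, also at the low end of its interval. In female cells 14 of 66 (21.2%, 12.1 to 33.0) did, where H3K9me3 covered 7.43% of the chromosome. In Setdb1-depleted cells it was 4 of 18 (22.2%, 6.41 to 47.6) with 6.41% covered, a share that the interval reaches, and in male cells 23 of 174 (13.2%, 8.57 to 19.2) with 6.88% covered. On the other autosomes the shares were 12.2%, 18.8% and 17.2%, with 4.03%, 2.52% and 3.67% covered. Of the female Setdb1 peaks 14 lay in the 5 windows densest in H3K9me3, as did 6 of the Setdb1-depleted and 35 of the male peaks. The other 25 windows held 52, 12 and 139. By known sequence the 5 windows make up 24.8 Mb and the other 25 make up 117 Mb. Whether Setdb1 peaks gather in the 5 windows was not tested.

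Between Setdb1-depleted and female cells, total H3 at the peaks of chromosome 7 changed by about as much as on the other autosomes. Between male and female cells it was lower at H3K9me2 and H3K9me3 peaks of the female list. In log2 units, the median Setdb1-depleted to female H3 ratio at female peaks differed from that of the other autosomes by 0.01 at H3K9me3 (−0.01 to 0.03, n = 457 peaks), by 0.00 at H3K9me2 (−0.04 to 0.05, n = 98) and by 0.00 at H3K27me3 (−0.01 to 0.01, n = 490). Across the 26 windows with at least 5 female H3K9me3 peaks this difference ran from −0.06 in window 17 to 0.18 in window 16, which has 5 peaks. In 4 of the 26 windows it was beyond 0.1. At H3K9me2 it was beyond 0.1 in 3 of 7 windows and lowest in window 2, with −0.17 over 19 peaks, the window where H3K9me2 went from 19 to 8 peaks. The part of H3 in that fall was not tested. For the male to female ratio the difference at female peaks was −0.02 (−0.04 to −0.0046) at H3K9me3 and −0.10 (−0.14 to −0.04) at H3K9me2, the lowest of 19 autosomes at both. At H3K9me3 peaks of the Setdb1-depleted list it was −0.0060 (−0.027 to 0.0098), the 11th of 19, and of the male list −0.019, the 17th. At H3K9me2 peaks of these lists it was −0.073 and −0.058. At female H3K9me2 peaks it was lowest in window 2, with −0.26 over 19 peaks, among windows with at least 5 such peaks.

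The number of H3 reads shows how well these regions can be read. Female H3K9me3 peaks of chromosome 7 had a median of 14.5 H3 reads per kb, H3K9me2 peaks 13.6 and H3K27me3 peaks 20.6, against 13.7, 16.6 and 20.7 on the other autosomes. In the 5 windows densest in H3K9me3 the H3K9me2 peaks had 10.6 reads per kb and in the other windows 15.3. Window 2 had 9 reads per kb at its female H3K9me3 peaks. The share of this low H3 level in the peak calls was not tested, and which H3 pool served as the control of each call is not stated.

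In 90 kb of chromosome 7 all 9 histone lists had a peak. Of these 5 stretches, 4 are given here: 40 kb and 15 kb within *Snhg14*, over its Snord116-like small nucleolar RNA genes (chr7:59855001-59895000 and chr7:59735001-59750000) and 10 kb each at chr7:23120001-23130000 and chr7:47175001-47185000, near *Gm10662* and *Mrgpra6*. Female H3 at their H3K9me3 peaks was between 7.15 and 11.5 reads per kb, below the median of 14.5. How many copies of these sequences the cells carry was not measured.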

How the data were processed

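The authors aligned single-end reads of E13.5 MEFs to mm10 with Bowtie2, pooled the libraries of each group and called peaks. For histone marks they used Seqmonk with H3 as the control. The deposited lists give positions in 5 kb steps and H3 reads as log2 values, scaled by the authors to the deepest pool. Undoing that scaling gave whole reads (within 0.05) for 99.9977% of female and all other values, at 61.6% (Setdb1-depleted) and 71.8% (male) of the female depth. For Setdb1 the authors ran MACS2 2.1.0.20140616 with p under 0.001. Per the file headers those lists give a pileup signal, −log10 p and fold enrichment, and the column of q-values was not used, since the headers say that q was not calculated. How deeply the histone marks were sequenced is not given in the sources used here.

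Peaks were counted in 5 Mb windows by midpoint, and overlap meant 1 bp. Intervals are exact (Poisson, Clopper-Pearson or conditional binomial, 95%; for medians, by order statistics). H3 ratios were centred on the median of the other autosomes. Genes came from GENCODE M21 and sequence from RefSeq GRCm38.p6. Tools were BLAST 2.17.0, scipy 1.17.1, pandas 2.3.3 and numpy 2.4.6 under Python 3.11.15, with matplotlib 3.10.9 for plots. Window counts, overlaps and intervals were tested on simulated lists. No list has values of single libraries, so no test was run.

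Members, gene lists and alternatives were chosen with earlier results of these data known. Named windows are the 5 (H3K9me3) or 3 (H3K9me2, H3K27me3) with most female bases and all that keep or lose H3K9me3. Named peaks are the widest of each histone list, the first 5 of each Setdb1 list and those in more than 1 list. Named genes are up to 4 per list by covered share in the female list, ties in order of position. The peak at rank 3 of the male Setdb1 list, and 1 stretch marked in all histone lists, are not reported here.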

Additional observations from a re-analysis of the deposited data

How the results depend on the processing

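No paired analysis was possible because the libraries of each group were pooled before peaks were called and the replicate numbers of the labels reach no column, and no replicate could be left out for the same reason. Of 108 alternative values 85 stayed within the counting interval of the reported value, or within 1.5 times a reported count. No ratio with an interval apart from 1 crossed 1, but others changed side: with histone peaks of at least 20 kb the Setdb1-depleted H3K9me2 density went from 0.825 to above 1. Female H3K9me2 went to 0.905 and male Setdb1 to 1.00 with peaks within 10 kb merged, and female and Setdb1-depleted Setdb1 to 0.931 and 1.11 with −log10 p of at least 5. In female, Setdb1-depleted and male cells, histone peaks of at least 20 kb gave H3K9me2 densities of 1.25, 1.22 and 0.921 against the other autosomes. For H3K9me3 the density of chromosome 7 against the other autosomes was then 2.35, 3.16 and 2.36. In covered bases it was 1.29 for female H3K9me2, 1.84, 2.55 and 1.87 for H3K9me3, and with peaks within 10 kb merged it was 1.21 for female H3K9me3. The ratio of Setdb1-depleted to female H3K27me3 was 0.794 in covered bases. The share of female peaks found in the Setdb1-depleted list was 40.8% (H3K9me3) and 59.6% (H3K27me3) when 50% of the peak had to be covered, and 51.7% for H3K9me3 peaks of at least 20 kb. The 5 windows with most female H3K9me3 peaks held 40.6% of these peaks, and the 5 with most covered bases held 36.2%. With windows of at least 10 female peaks 1 lost and 0 kept H3K9me2, 5 lost H3K9me3 and 1 lost H3K27me3. With windows shifted by 2.5 Mb 7 lost and 9 kept H3K9me3, in place of 10 and 6, and 0 lost H3K27me3. In covered bases 3 kept H3K27me3. The H3 difference at H3K9me3 peaks was −0.0092 from summed reads, of opposite sign to the 0.01 of the median, whose interval includes 0. The cause of these shifts was not tested. The ratios of both parts of chromosome 7 and the ratio without its 5 densest windows, alternatives chosen after seeing the data, stayed within the intervals. Peaks called on 1 pool are not independent, and the intervals do not cover the spread between animals.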
